A study of Mus musculus with 45 samples.

Results

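Transcripts of the Aurora kinases and of the chromosomal passenger complex were measured in 45 single mouse oocytes. The 6 genes were taken by symbol: the kinases Aurka, Aurkb and Aurkc, the scaffold Incenp, and the targeting subunits Cdca8 (borealin) and Birc5 (survivin). They are 6 of the 55357 genes of the deposited count table, and all 6 passed the filter on low counts in both statistical fits. The study rebuilt follicles by putting an oocyte into a follicle emptied of its own oocyte, and cultured the chimeric follicle. There were 6 aged oocytes with young somatic cells (AY), 12 aged oocytes with aged somatic cells (AA) and 11 young oocytes with young somatic cells (YY). The controls were 8 young oocytes kept in culture in vitro (in vitro young) and 8 young oocytes taken without culture (in vivo young). The strain, the ages behind "young" and "aged", the length of culture and the meiotic stage at collection are not given in the sources used here.

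Aurora kinases are serine/threonine kinases of cell division. Aurka acts at the spindle poles and organises the acentrosomal spindle of the oocyte. Aurkb and the germ cell kinase Aurkc each bind Incenp, whose C-terminal end activates them, while borealin and survivin bind the other end of Incenp and place the complex on the centromeres. There the complex releases wrong attachments of microtubules to kinetochores and guards cohesion, and it later moves to the spindle midzone. Errors of chromosome segregation become more frequent in oocytes as females age.

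The 3 kinases are close relatives, and the stretch of coding sequence around their activation loop shows how close. The coding strand is given from the GENCODE M21 transcripts (GRCm38), with the codon of the activating threonine in capitals; it is codon 301 of the Aurka, 237 of the Aurkb and 210 of the Aurkc transcript used.
Aurka: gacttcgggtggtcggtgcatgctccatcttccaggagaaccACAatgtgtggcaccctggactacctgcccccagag
Aurkb: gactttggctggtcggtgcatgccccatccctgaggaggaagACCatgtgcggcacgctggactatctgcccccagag
Aurkc: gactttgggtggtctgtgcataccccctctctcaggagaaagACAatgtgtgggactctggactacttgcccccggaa
Of these 78 bases, Aurka and Aurkb share 64, Aurka and Aurkc 64, and Aurkb and Aurkc 63. Over the aligned coding sequences the identity of bases was 62.6% for Aurka and Aurkb, 63.3% for Aurka and Aurkc, and 68.8% for Aurkb and Aurkc. The longest identical run was 20 bases for Aurka and Aurkb, 12 for Aurka and Aurkc and 25 for Aurkb and Aurkc, and no pair shared a run of 50 bases. The treatment of reads that match several genes is not stated in the sources used here.

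In the deposited table, on mm39, Aurka (ENSMUSG00000027496) lies on chromosome 2 from 172198110 to 172212456 and Aurkb (ENSMUSG00000020897) on chromosome 11 from 68936473 to 68942491. Aurkc (ENSMUSG00000070837) lies on chromosome 7 from 6998299 to 7006091 and Incenp (ENSMUSG00000024660) on chromosome 19 from 9849660 to 9876916. Cdca8 (ENSMUSG00000028873) lies on chromosome 4 from 124812258 to 124833105 and Birc5 (ENSMUSG00000017716) on chromosome 11 from 117740077 to 117746570. Incenp overlaps the gene model Gm50324, which had 0 counts over the 45 libraries against 2349 for Incenp. Cdca8 overlaps 9930104L06Rik, which had 112 counts against 18932 for Cdca8. The sources used here do not say whether the counting used strand.

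Total counts ranged from 418703 to 2201980 per library, with a median of 871850, and 12785 to 16900 genes had at least 1 count. All 13 oocyte markers were present in every group. The theca and stroma markers summed to at most 10.2 CPM (counts per 1e6 counted reads) in any library, and the immune markers to at most 9.67. Endothelium and blood markers summed to at most 131 CPM. Of these, Pecam1 averaged 46.6 CPM in AY to 72.4 in AA, and Cdh5 was at 0 in every group. Each oocyte counts as a biological replicate in the labels, which name no mouse, so the p-values describe the spread between these libraries alone, and that spread may be technical. Each group has its own range of library numbers, so group and order of preparation cannot be told apart. The YY libraries fall into 2 runs, numbered S198 to S202 (n = 5) and S225 to S231 (n = 6). Other groups have gaps as well. AY libraries are S234 and S240 to S244. In vitro young are S128, S129, S148, S149 and S162 to S165, and in vivo young S17, S18 and S71 to S77. The kit used 16 cycles of PCR for the cDNA and no molecular identifiers, so read counts are not counts of molecules. TMM scaling factors ran from 0.947 to 0.989 in AA and from 1 to 1.07 in YY without overlap, so results between these groups depend on the scaling.

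All 6 transcripts were detected in every oocyte. The lowest count of any member in any library was 11, for Aurkc, and the highest was 2611, for Birc5. Levels below are TMM-scaled CPM. Birc5 made up 53.5% of the summed CPM of the 6 genes, Cdca8 22.4%, Aurka 17.6%, Incenp 2.68%, Aurkc 2.11% and Aurkb 1.72%. By mean CPM, Birc5 ranked 100 among all genes of the table and Cdca8 ranked 333, whereas Aurkb ranked 4626. The scaffold Incenp, which has to bind both targeting subunits and a kinase, ranked 3547.

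Per kilobase of exon (GENCODE M21, all exons joined), Birc5 averaged 321 ± 29.6 CPM per kb, Aurka 142 ± 20.3, Cdca8 88.6 ± 12.7, Aurkc 28.4 ± 8.44, Incenp 12.7 ± 3.88 and Aurkb 11.9 ± 3.63 (SD, n = 45 libraries). Birc5 was the highest per kilobase in 45 of 45 libraries, and Birc5, Cdca8 and Aurka all stood above Aurkb, Aurkc and Incenp in 45 of 45. Aurkc stood above Aurkb per kilobase in 45 of 45 libraries, and Aurka exceeded Aurkb by a median of 11.5-fold and Aurkc by 5.13-fold. These statements held with the length of the principal transcript as well, where the folds were 10.1 and 5.16. The order of Aurka and Cdca8 did not hold: with the principal transcript Cdca8 averaged 282 ± 40.5 and Aurka 189 ± 27 CPM per kb.

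**Figure D1:**
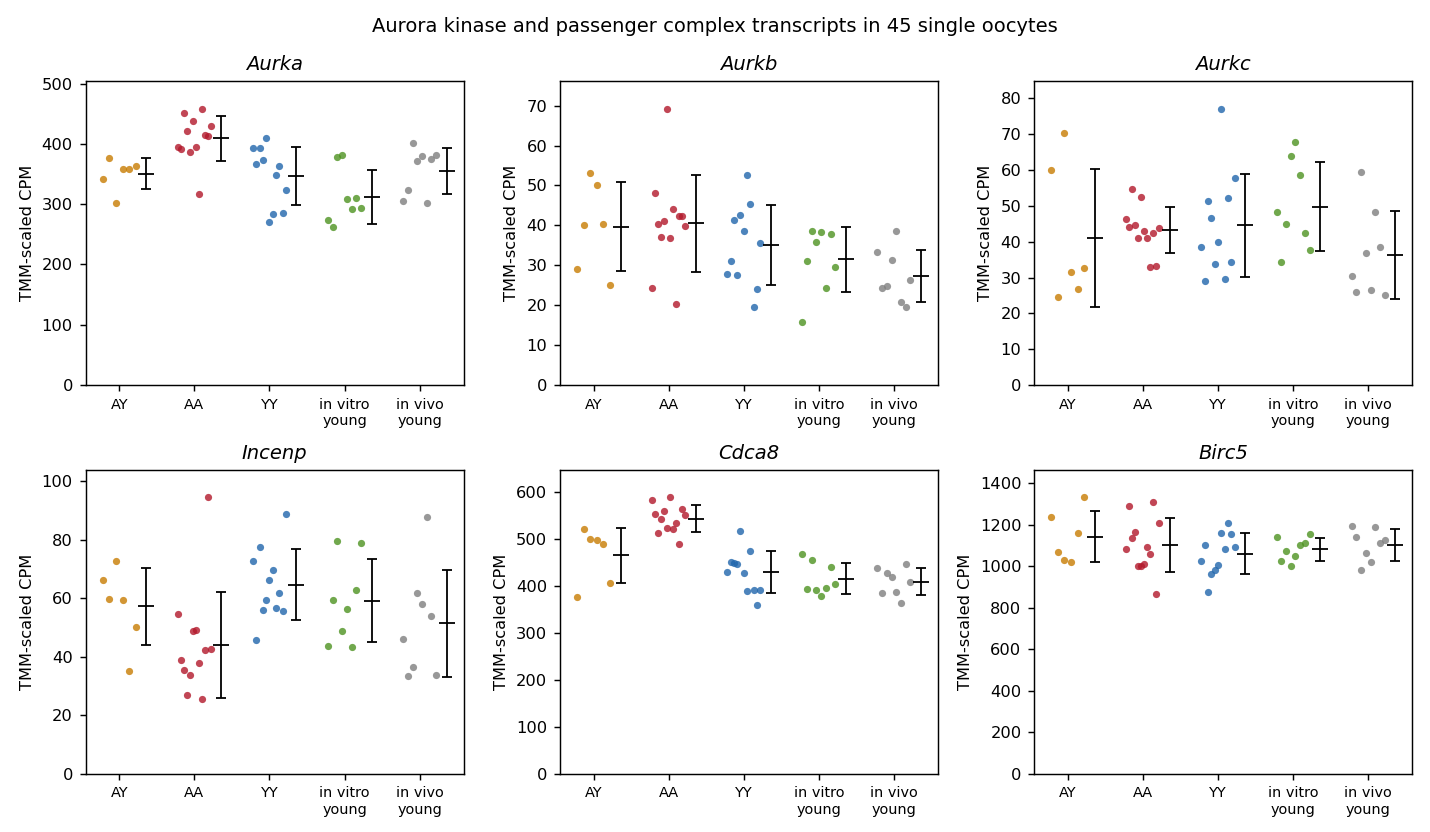
TMM-scaled CPM (vertical axis, from 0) of each gene in every library, by group (horizontal axis); a point is 1 oocyte and the black mark is the mean with its SD. Cdca8 and Aurka sit highest in AA, Incenp sits lowest in AA except for 1 oocyte at 94.5 CPM, and Birc5 averages between 1059 and 1142 CPM in all 5 groups.

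The kinase Aurka averaged 350 ± 26 CPM in AY, 409 ± 37.2 in AA, 346.5 ± 48.6 in YY, 312 ± 44.7 in in vitro young and 355 ± 38.5 in in vivo young oocytes (SD; n = 6, 12, 11, 8 and 8, here and for the following genes). Aurkb averaged 39.7 ± 11.1, 40.5 ± 12.1, 35.1 ± 10, 31.5 ± 8.07 and 27.4 ± 6.52 CPM in AY, AA, YY, in vitro young and in vivo young oocytes. Aurkc averaged 41 ± 19.2, 43.4 ± 6.36, 44.5 ± 14.5, 49.8 ± 12.4 and 36.4 ± 12.2 CPM in the same order. Among the kinases, the Aurka groups ranked AA, in vivo young, AY, YY and in vitro young from high to low, and of the neighbouring steps, AY over YY and YY over in vitro young were tested and not called. Aurkb ranked AA, AY, YY, in vitro young and in vivo young, and Aurkc ranked in vitro young, YY, AA, AY and in vivo young, with no tested neighbouring step called.

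The scaffold Incenp averaged 57.3 ± 13.2 CPM in AY, 44.1 ± 18.1 in AA, 64.6 ± 12.1 in YY, 59.1 ± 14.2 in in vitro young and 51.4 ± 18.3 in in vivo young oocytes. Cdca8 averaged 465.8 ± 58.7, 544 ± 29.1, 430 ± 44.8, 416 ± 33.8 and 410 ± 28.9 CPM in AY, AA, YY, in vitro young and in vivo young oocytes. Birc5 averaged 1142 ± 124, 1102 ± 128.2, 1059 ± 99.4, 1082 ± 55.6 and 1102 ± 75.6 CPM in the same order. Incenp ranked YY, in vitro young, AY, in vivo young and AA from high to low, and Cdca8 ranked AA, AY, YY, in vitro young and in vivo young. No tested step between neighbours of either order was called, so the called differences span groups that are not next to each other. The highest group mean exceeded the lowest by 1.48-fold for Aurkb, 1.46-fold for Incenp, 1.37-fold for Aurkc, 1.33-fold for Cdca8, 1.31-fold for Aurka and 1.08-fold for Birc5.

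Part of the spread between oocytes is counting error. For Birc5 the coefficient of variation within groups was 5.14% to 11.6%, where counting alone gives 2.84% to 3.54%. For Cdca8 it was 5.35% to 12.6% against 4.58% to 5.54%, and for Aurka 7.41% to 14.3% against 5.29% to 6.19%. The 3 low transcripts spread more: 23.8% to 29.8% for Aurkb, 14.7% to 46.8% for Aurkc and 18.7% to 41% for Incenp, where counting alone gives 17.1% to 20.2%, 13.6% to 19.2% and 12.3% to 18.3%. Differences of Aurkb, Aurkc and Incenp are therefore measured with wider errors than those of the other 3.

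AA against YY sets aged oocytes in aged somatic cells against young oocytes in young somatic cells. Cdca8 and Aurka were higher in AA, by 1.26-fold and 1.18-fold, and Incenp was lower, at 0.681 of its YY level. Aurkb, Aurkc and Birc5 were not called. The 3 called genes make up 3 of 6 members, where 27.5% of the 8533 tested genes were called, 12.8% higher and 14.7% lower. The median log2 fold change was 0.13 over the 6 genes and -0.01 over all tested genes. In this comparison the AA and YY values of every member overlapped.

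Cdca8, the borealin subunit that ties survivin to Incenp, ranged from 489 to 589 CPM in AA, with a median of 547, against 360 to 517 CPM in YY, with a median of 429. All 12 AA oocytes lay above the YY median. The log2 fold change was 0.33 ± 0.07 (SE; edgeR quasi-likelihood adjusted p = 0.000372). Aurka, the spindle pole kinase, ranged from 317 to 458 CPM in AA, with a median of 413, against 270.8 to 410 CPM in YY, with a median of 364. Of the 12 AA oocytes 11 lay above the YY median, and the log2 fold change was 0.23 ± 0.08 (edgeR adjusted p = 0.0196).

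Incenp, the scaffold, ranged from 25.4 to 94.5 CPM in AA, with a median of 40.6, against 45.7 to 88.9 CPM in YY, with a median of 61.9. Of the 12 AA oocytes 11 lay below the YY median; the exception, AA replicate 11 at 94.5 CPM, was also the highest of all 45 oocytes, and the next AA value was 54.4 CPM. The log2 fold change was -0.55 ± 0.16 (edgeR adjusted p = 0.0084), and without that oocyte it was -0.72. In reads, AA oocytes held 20 to 85 counts of Incenp and YY oocytes 22 to 80.

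Birc5, the survivin gene, ranged from 868 to 1310 CPM in AA and from 875 to 1209 CPM in YY, with a log2 fold change of 0.05 and a 95% interval from -0.09 to 0.19 (edgeR adjusted p = 0.653). Aurkb ranged from 20.3 to 69.2 CPM in AA and from 19.5 to 52.6 CPM in YY. Aurkc ranged from 33 to 54.8 CPM in AA and from 29.1 to 77.1 CPM in YY. The AA values of both kinases lay largely within the YY range, and 10 of 12 AA oocytes lay above the YY median for each. For Aurkc the YY mean was nevertheless the higher one, and it includes YY replicate 7 at 77.1 CPM. For Aurkb the log2 fold change was 0.20, with an interval from -0.14 to 0.54, and for Aurkc it was -0.06, with an interval from -0.40 to 0.27. At 12 to 56 counts of Aurkb and 11 to 106 of Aurkc per library, changes within these wide intervals were not detectable for Aurkb and Aurkc.

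The calls between AA and YY depended on which YY run was used. Aurka averaged 387 ± 17 CPM in YY libraries numbered S198 to S202 (n = 5) and 313 ± 38 CPM in those numbered S225 to S231 (n = 6), against 409 CPM in AA. With the first run alone, the AA over YY log2 fold changes were 0.07 for Aurka (edgeR adjusted p = 0.714), -0.51 for Incenp (adjusted p = 0.15) and 0.23 for Cdca8 (adjusted p = 0.0869), and 0 members were called. With the second run alone they were 0.38, -0.60 and 0.41, and all 3 were called. Aurka also lost its call with scaling by library totals alone, at 0.14 (adjusted p = 0.14), a scaling that moved the median of all genes to -0.11.

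Oocytes also fell into sets by 8 genes that were either high or nearly absent in single oocytes, which gave 10 patterns over the 45 libraries. With the pattern as a random block in limma, Cdca8 (0.33, adjusted p = 0.0102) and Incenp (-0.67, adjusted p = 0.0341) stayed called in AA against YY, and Aurka did not (0.25, adjusted p = 0.1). With the counts of each pattern within a group summed, the 29 chimeric libraries became 8 sums, and no member was called, with log2 fold changes of 0.34 for Cdca8, 0.25 for Aurka and -0.62 for Incenp.

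**Figure D2:**
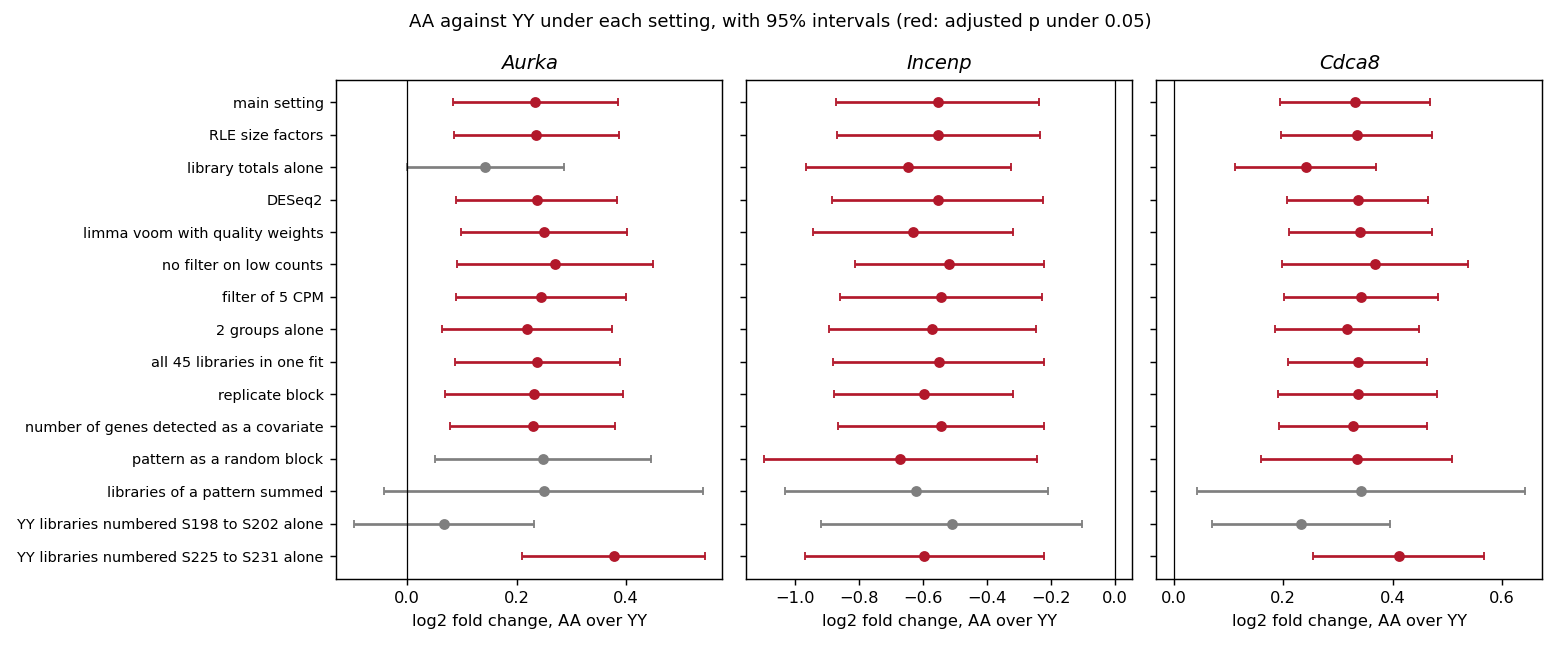
AA over YY log2 fold change (horizontal axis) of Aurka, Incenp and Cdca8 under each processing setting (vertical axis); bars are 95% intervals and red points have an adjusted p under 0.05. Cdca8 stays between 0.23 and 0.41 and Incenp between -0.67 and -0.51, whereas Aurka ranges from 0.07 with the first YY run alone to 0.38 with the second.

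Granulosa cell transcripts also differed between groups. The summed level of 16 granulosa markers had a median of 1310 CPM in AY (851 to 1400), 1070 in AA (699 to 1360) and 696 in YY (536 to 831), against 632 in in vitro young and 638 in in vivo young oocytes. Most of the sum was Serpine2, with means of 875 CPM in AA and 614 CPM in YY, and oocytes express it too. Between AA and YY, 4 of the 6 granulosa markers tested were higher and 0 lower. Their log2 fold changes were 3.49 for Gja1, 2.78 for Inha, 1.985 for Inhba and 0.50 for Serpine2. Nr5a2 (-0.22) and Cyp19a1 (0.37) were not called. Inha averaged 49.2 CPM in AA, 43.4 in AY and 6.51 in YY. Gja1 averaged 26.8, 16.7 and 2.1 CPM in the same order, and Inhba 11.2, 9.39 and 2.56. Between AY and YY, 3 of the 6 were higher and 0 lower, where 1.62% of all genes were called. Of the 16 markers, Amh was at 0 in every group. Of 5 proliferation markers tested, 0 were higher and 1 lower in AA, with a median log2 fold change of 0.18. The lower one was Mki67 (-0.48, edgeR adjusted p = 0.00144), and Pcna (0.19), Mcm5 (0.29), Top2a (0.18) and Mcm2 (-0.04) were not called. More attached cells and more RNA per attached cell cannot be told apart here, and the part of these cells in the Aurora and passenger transcripts was not tested.

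AY against AA sets young somatic cells against aged ones around aged oocytes. No member was called by edgeR at an adjusted p under 0.05, where 6.59% of all tested genes were called, 3.52% higher and 3.07% lower; 2 members had an unadjusted p under 0.05, 1 was called by DESeq2 and 0 by limma voom. Cdca8 ranged from 377.5 to 522 CPM in AY, with a median of 493.5, against 489 to 589 CPM in AA. All 6 AY oocytes lay below the AA median, and the log2 fold change was -0.22 ± 0.08 (edgeR adjusted p = 0.0922, DESeq2 adjusted p = 0.0497). Aurka ranged from 302 to 377 CPM in AY, against 317 to 458 CPM in AA. All 6 AY oocytes again lay below the AA median, with a log2 fold change of -0.23 ± 0.09 (adjusted p = 0.136).

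Incenp ranged from 35.2 to 72.8 CPM in AY, with a median of 59.5, against 25.4 to 94.5 CPM in AA, with a median of 40.6. Of the 6 AY oocytes 5 lay above the AA median. The log2 fold change was 0.37 ± 0.19 (edgeR adjusted p = 0.258); without AA replicate 11 it was 0.54 and called (adjusted p = 0.0471). Birc5, Aurkb and Aurkc had log2 fold changes of 0.05, -0.05 and -0.05, with 95% intervals from -0.11 to 0.22, from -0.46 to 0.36 and from -0.45 to 0.34. AA takes part in both AY against AA and AA against YY, so opposite signs in them share the AA values and are no separate evidence.

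The AY oocytes were not uniform for Cdca8. AY replicates 1 and 6, which had 1 all-or-nothing pattern, held 377.5 and 407 CPM, while the other 4 AY oocytes, of the other pattern, held 489 to 522 CPM. For Birc5 the order was turned round: replicates 1 and 6 held 1236 and 1331 CPM, and the other 4 held 1022 to 1158 CPM. With the pattern as a random block the AY over AA change of Cdca8 did not pass the threshold, and it had not passed in the main fit (edgeR adjusted p = 0.0922).

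AY against YY sets aged against young oocytes in young somatic cells. No member was called by edgeR, DESeq2 or limma voom and 0 had an unadjusted p under 0.05, where 1.62% of all tested genes were called, 0.715% higher and 0.902% lower. The log2 fold changes were 0.01 for Aurka (95% interval -0.17 to 0.19), 0.11 for Cdca8 (-0.06 to 0.27), 0.10 for Birc5 (-0.07 to 0.27) and -0.19 for Incenp (-0.56 to 0.19). Aurkb was at 0.15 (-0.26 to 0.57) and Aurkc at -0.12 (-0.52 to 0.28). The AY and YY values of every member overlapped. AY against YY and AA against YY share the YY libraries.

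**Figure D3:**
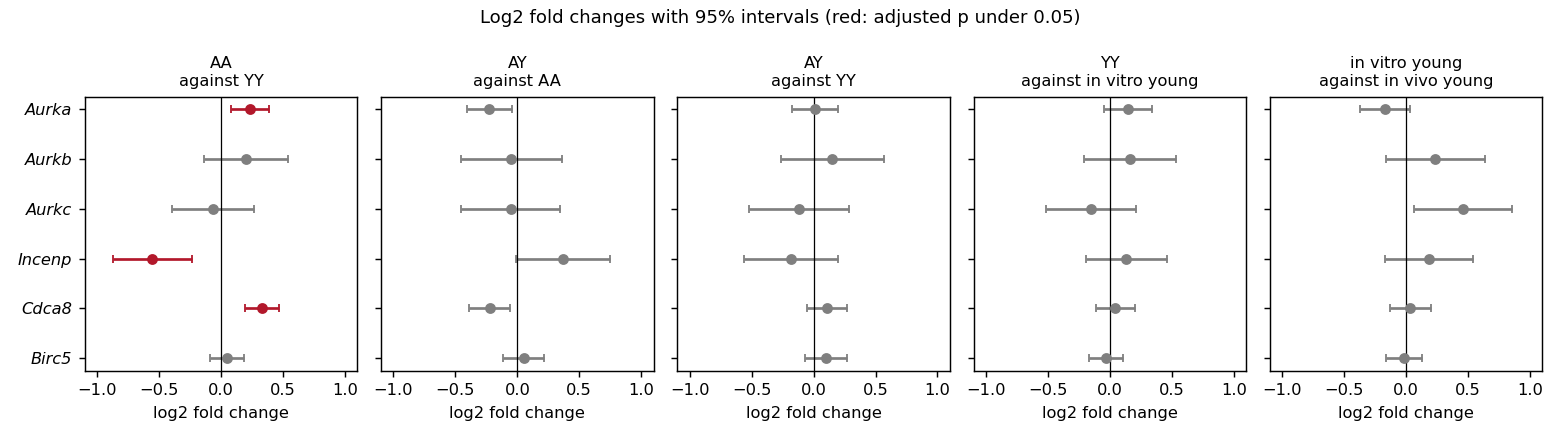
Log2 fold change (horizontal axis, first group over second) of each gene (vertical axis) in the 5 comparisons, with 95% intervals; red points have an adjusted p under 0.05. Red points appear in AA against YY alone, for Aurka, Incenp and Cdca8, and the bars of Aurkb, Aurkc and Incenp are the widest.

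YY against in vitro young sets oocytes of chimeric follicles against oocytes of the in vitro culture control. No member was called by edgeR, DESeq2 or limma voom and 0 had an unadjusted p under 0.05, where 2.48% of the 8749 tested genes were called, 0.777% higher and 1.7% lower. The log2 fold changes lay between -0.15 for Aurkc, with a 95% interval from -0.52 to 0.21, and 0.16 for Aurkb, with an interval from -0.21 to 0.53. The abundant Cdca8 and Birc5 were at 0.04 (-0.11 to 0.20) and -0.03 (-0.17 to 0.10).

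In vitro young against in vivo young sets cultured against uncultured oocytes. No member was called by edgeR, DESeq2 or limma voom and 1 had an unadjusted p under 0.05, where 0.137% of all tested genes were called, 0.126% higher and 0.0114% lower. That member was Aurkc, the germ cell kinase, which ranged from 34.2 to 68 CPM in in vitro young, with a median of 46.7, against 25.1 to 59.6 CPM in in vivo young oocytes, with a median of 33.6. All 8 cultured oocytes lay above the in vivo median, and the log2 fold change was 0.46 ± 0.20 (edgeR adjusted p = 0.449). Cdca8 and Birc5 were at 0.03 (95% interval -0.13 to 0.20) and -0.02 (-0.17 to 0.13).

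Ratios of 2 members within an oocyte do not depend on the scaling between libraries. Of the 15 tests (3 ratios of counts plus 0.5 in 5 comparisons, two-sided permutation tests adjusted over the 15), 2 had an adjusted p under 0.05. Cdca8 over Incenp averaged 3.69 ± 0.47 on the log2 scale in AA and 2.74 ± 0.33 in YY (SD, n = 12 and 11). This difference of 0.95, or 1.93-fold, had a permutation p of 9e-05 from 100000 resamples and an adjusted p of 0.00135, and 11 of 12 AA oocytes lay above the YY median. It was 0.80 with the first YY run alone (exact test, adjusted p = 0.0478) and 1.07 with the second (adjusted p = 0.00404). The ratio was set up with the opposite changes of its 2 genes known, so it adds no independent evidence of them.

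In AY the ratio of Cdca8 over Incenp averaged 3.04 ± 0.43, which lay 0.65 below AA (exact permutation p = 0.0132, adjusted p = 0.066) and 0.30 above YY (exact permutation p = 0.129, adjusted p = 0.431). The AY against AA difference passed with AA replicate 11 left out (exact permutation test, adjusted p = 0.00788) or with AY replicate 5 left out (adjusted p = 0.0267). Between the kinases, Aurka over Aurkc averaged 2.67 ± 0.33 in in vitro young and 3.32 ± 0.45 in in vivo young oocytes (SD, n = 8 each). This difference of -0.66 had an exact permutation p of 0.00637 and an adjusted p of 0.0478, and 0 of 8 cultured oocytes lay above the in vivo median. The call was lost in 13 of the 16 repeats that left out 1 oocyte, with an adjusted p of at most 0.066. No repeat by run of library numbers was made within the in vitro young and in vivo young groups.

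The meiotic against the mitotic kinase, Aurkc over Aurkb, averaged -0.02 ± 0.72 in AY, 0.14 ± 0.39 in AA, 0.33 ± 0.56 in YY, 0.67 ± 0.54 in in vitro young and 0.38 ± 0.67 in in vivo young oocytes. No comparison of this ratio was called, and the lowest adjusted p was 0.446 (exact permutation test, YY against in vitro young).

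**Figure D4:**
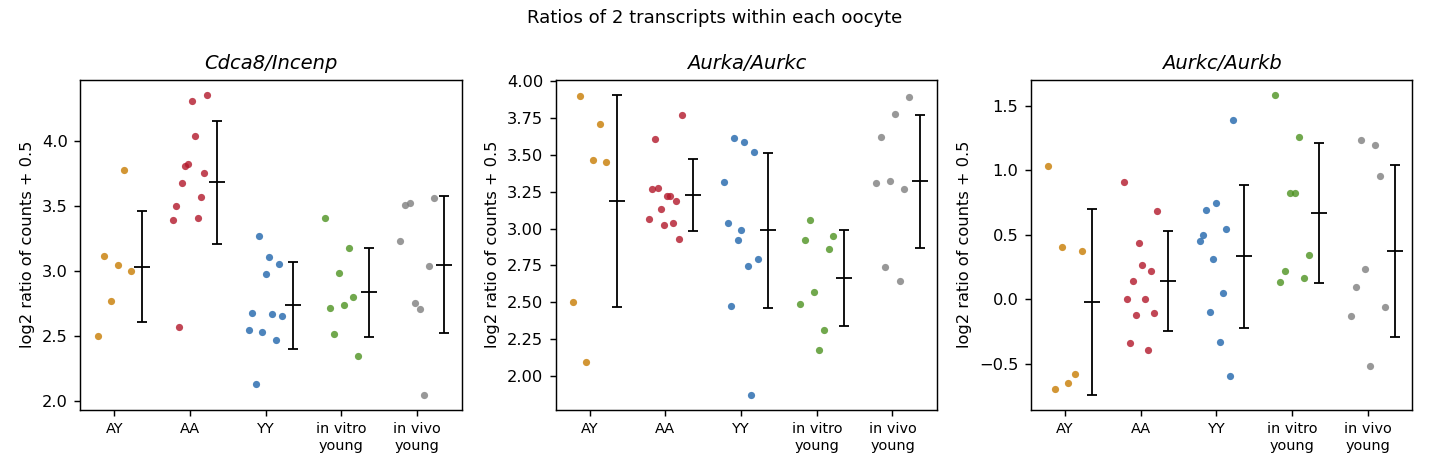
Log2 ratio of 2 transcripts within each oocyte (vertical axis), by group (horizontal axis); a point is 1 oocyte and the black mark is the mean with its SD. Cdca8 over Incenp is highest in AA with 1 low oocyte at 2.57, and Aurka over Aurkc in the cultured oocytes averages 2.67, against 3.32 in the uncultured ones.

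Over the 45 libraries no common rise and fall of the 6 transcripts was seen within groups. Counting error limits what pairs with Aurkb, Aurkc or Incenp could show. With group means removed, Pearson's r of log2 CPM over the 45 libraries lay between -0.44 and 0.28 for the 15 pairs, and no pair had a permutation p adjusted over the 15 under 0.05. The strongest was between the abundant subunits Cdca8 and Birc5, with r = -0.44 (permutation p = 0.00425, adjusted 0.0637) and Spearman's rho = -0.44 (permutation p = 0.00487, adjusted 0.073). Without the 2 libraries farthest from the median of Cdca8, r was -0.40. In the 29 chimeric libraries alone r was -0.58 (adjusted permutation p = 0.00945) and rho -0.60 (adjusted permutation p = 0.0132). With the means of each all-or-nothing pattern within each group removed, r over the 45 libraries was -0.36 (adjusted permutation p = 0.311). Both axes share the library's depth and scaling, and the cause of the relation was not tested.

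Of the 7477 genes tested in both fits, those whose log2 CPM followed a member most closely over the 45 libraries differed from member to member. For Cdca8 they were the proteasome subunit Psmd4 (r = 0.84), the mitochondrial protease Parl (0.83) and Ciapin1 (0.83), and with group means removed these values were 0.59, 0.59 and 0.64. For Aurka they were Accsl (0.77), the ubiquitin ligase Rnf185 (0.76) and Zfp955a (0.75), or 0.63, 0.69 and 0.67 with group means removed. For Birc5 they were Rbx1-ps (0.67), the cyclin-dependent kinase subunit Cks2 (0.66) and Mrps33 (0.64), with 0.66, 0.72 and 0.64 after removal. For Incenp they were the pericentriolar protein Pcnt (0.68), Zfp664 (0.66) and Phf1 (0.65), with 0.63, 0.55 and 0.52 after removal. The 2 scarce kinases had weaker companions: Cers2 (0.62), Cdipt (0.55) and Serpine2 (0.55) for Aurkb, and Rad51ap2 (0.58), Fam135a (0.53) and Arhgef28 (0.53) for Aurkc. These are descriptions over libraries that share depth, scaling and group, and they were picked for their height.

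Of 18 genes listed as activators or recruiters of the kinases, 17 were tested in AA against YY. Of these 9 were higher and 1 lower in AA, with a median log2 fold change of 0.29, beside 12.8% higher and 14.7% lower, and a median of -0.01, over all genes. Bora, the cofactor through which Plk1 is activated by Aurka, averaged 138 ± 38.3 CPM in AA and 70.6 ± 16.2 in YY, a log2 fold change of 0.95 ± 0.14 (edgeR adjusted p = 5.98e-06). Tacc3, a spindle protein counted in this list that Aurka also phosphorylates, averaged 1798 ± 246 CPM in AA and 1157 ± 292 in YY, a change of 0.63. Bub1, whose histone mark recruits shugoshin, rose by 0.73, the centromere protector Sgo2a by 0.70 and the cyclin Ccnb2 by 0.42 on the log2 scale. Rcc2, which helps place the passenger complex at the inner centromere, was the lower one, at 15.9 ± 7.25 CPM in AA and 33.9 ± 18.6 in YY (log2 fold change -1.20).

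Among proteins that the kinases phosphorylate, 24 of 26 were tested in AA against YY; 10 were higher and 0 lower, with a median log2 fold change of 0.27, beside 12.8% higher and 14.7% lower over all genes. With scaling by library totals alone, 7 substrates were higher and 2 lower, at a median of 0.17, and 7 activators were higher and 2 lower, at 0.20. The kinetochore protein Ska3 averaged 194 ± 36.5 CPM in AA and 107 ± 33.8 in YY, a change of 0.85 ± 0.13 (edgeR adjusted p = 4.73e-06). The midzone kinesin Kif20a rose by 0.86, the kinesin Kif18a by 0.58, the translation regulator Cpeb1 by 0.53, the depolymerising kinesin Kif2a by 0.41 and the kinetochore protein Nuf2 by 0.28 on the log2 scale. With the first YY run alone, 5 activators were higher and 0 lower, and 1 substrate was higher, where 5.43% of all genes were called. The medians of the 2 lists were 0.04 and 0.13. With the second run alone, 38.1% of all genes were called. There 10 activators were higher and 2 lower, and 12 substrates were higher and 1 lower. With the libraries of a pattern summed, 0 genes of either list were called, at medians of 0.30 and 0.27.

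Of the 21 genes of the phosphatase and degradation list, 15 were tested in AA against YY. Of these 1 was higher and 2 lower in AA, beside 27.5% called over all genes. With the pattern as a random block, or with the first YY run alone, 0 were higher and 1 lower, and with sums 0 were called. With the second YY run alone 4 were higher and 4 lower, where 38.1% of all genes were called. With limma voom 3 were higher and 2 lower, where 28.1% of all genes were called. Without a filter on low counts 21 were tested, with 1 higher and 4 lower, where 10.3% of all genes were called. Ppp2ca, the catalytic subunit of PP2A, averaged 15.3 ± 4.08 CPM in AA and 38.5 ± 17.7 in YY (log2 fold change -1.35 ± 0.23, edgeR adjusted p = 2.28e-05). Fzr1, the APC/C activator that marks Aurora kinases for degradation, was lower by a log2 fold change of -0.66, and the PP2A scaffold Ppp2r1b was higher by 0.70.

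**Figure D5:**
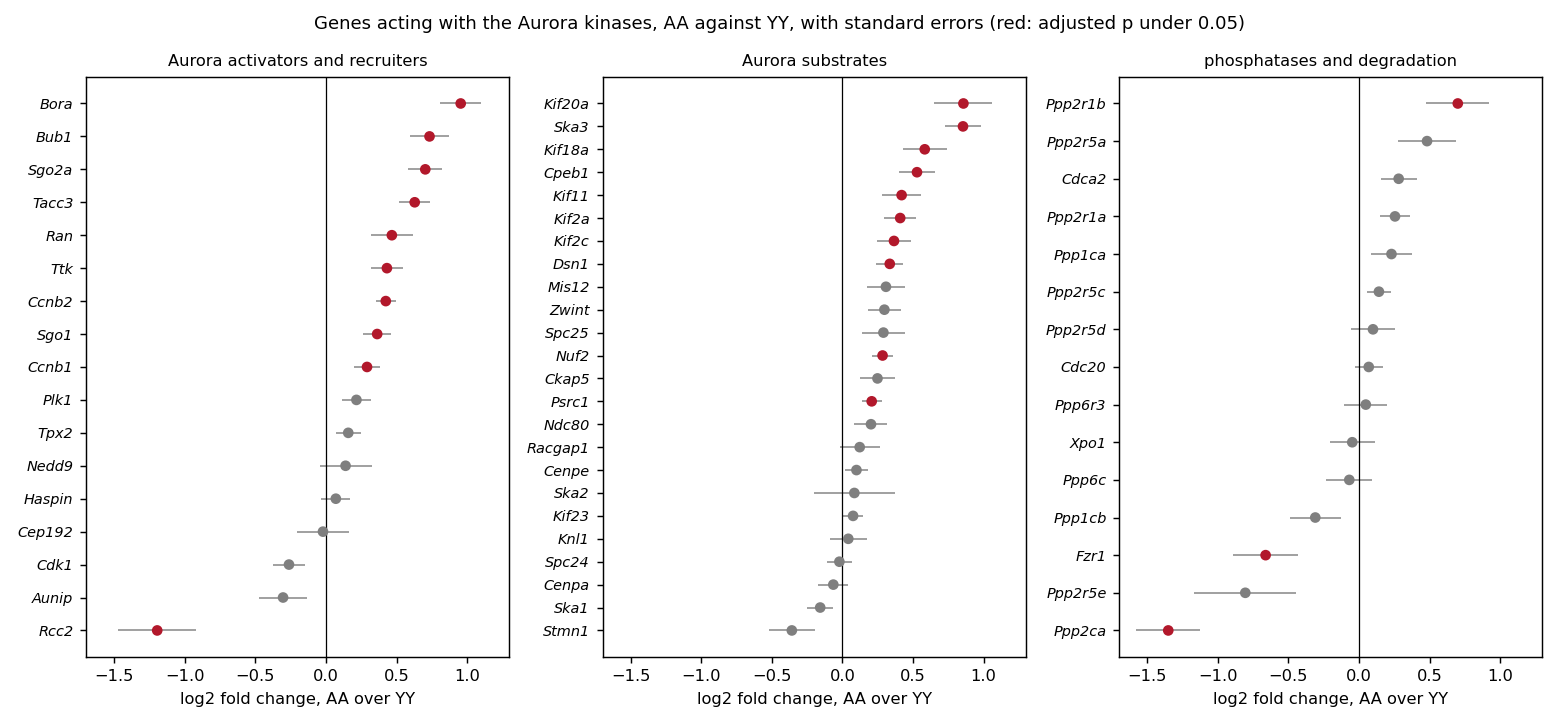
Log2 fold change in AA over YY (horizontal axis) of each tested gene (vertical axis) of 3 lists, with standard errors; red points have an adjusted p under 0.05. Red points lie to the right of 0 for 9 activators and recruiters and 10 substrates, with Rcc2 at -1.20 and Ppp2ca at -1.35 on the left.

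In AY against AA, 1 of 17 activators was higher and 3 lower, beside 3.52% and 3.07% of all genes. Rcc2 averaged 35.8 ± 13.4 CPM in AY and 15.9 ± 7.25 in AA (log2 fold change 1.25 ± 0.32, edgeR adjusted p = 0.0154). Bora fell by 0.67, Bub1 by 0.56 and Ttk, a checkpoint kinase, by 0.46 on the log2 scale. Of the 24 substrates 0 were higher and 4 lower: Kif2a fell by 0.61, the microtubule polymerase Ckap5 by 0.61, Ska3 by 0.56 and the kinetochore motor Cenpe by 0.35. Ppp2ca was higher, by 0.88, and was the 1 of 15 phosphatase and degradation genes called. Fitted with the pattern as a random block, 0 genes of all 3 lists passed in this comparison, where 0.938% of all genes did.

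Between AY and YY 1 gene of the 3 lists was called, where 1.62% of all genes were called. This was Sgo2a, which averaged 79.4 ± 8.21 CPM in AY and 43.9 ± 7.15 in YY (log2 fold change 0.83 ± 0.14, edgeR adjusted p = 0.00063). With the second YY run alone, 10.3% of all genes were called in AY against YY. There 4 activators and 6 substrates were higher, and 2 phosphatase and degradation genes were lower. With the first run alone, 1 activator was higher and 1 phosphatase or degradation gene lower, where 1.61% of all genes were called. Between YY and in vitro young, 4 activators were lower in YY: Ran by a log2 fold change of -0.94, Bub1 of -0.65, Bora of -0.55 and Tacc3 of -0.53. The substrates Kif2a (-0.61), Ckap5 (-0.53) and Cenpe (-0.37) were lower as well, and no gene of the lists was higher, where 1.7% of all genes were lower and 0.777% higher. With the first YY run alone, 1 activator and 0 substrates were lower. The pattern block left 1 and 3, and fitting genes detected as a covariate left 2 and 0. With the second YY run alone, 3 activators and 10 substrates were lower and 1 substrate was higher, where 9% of all genes were called. Between in vitro young and in vivo young 0 genes of the 3 lists were called, where 0.137% of all genes were called.

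Aurka and Cdca8, the 2 members called higher in AA, have promoters with the letters of 2 elements common in genes of late cell cycle phases: CCAAT, which NF-Y binds, and TTTGAA, the core of the cell cycle genes homology region. The stretches that hold them are given on the gene's strand, from the RefSeq promoter table (GRCm38.p6), with both motifs in capitals; ATTGG is CCAAT on the other strand. The Aurka stretch is chr2:172370523-172370631 and the Cdca8 stretch chr4:124936885-124937012, both on the minus strand.
Aurka: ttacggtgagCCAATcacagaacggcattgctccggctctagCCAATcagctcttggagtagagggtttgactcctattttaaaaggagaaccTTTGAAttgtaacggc
Cdca8: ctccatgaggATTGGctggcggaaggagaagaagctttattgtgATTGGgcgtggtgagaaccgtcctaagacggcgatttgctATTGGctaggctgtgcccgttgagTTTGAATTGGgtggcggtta
The table had promoters of 4 of the 6 members, from 250 bases before to 50 after the start. Searched on both strands, CCAAT was in 3 of the 4 (Aurka, Cdca8 and Aurkc) and TTTGAA in 2 (Aurka and Cdca8), and the last CCAAT of Cdca8 overlaps its TTTGAA. Over all 32851 promoters of the table, 37.4% held CCAAT, 17.9% TTTGAA and 7.0% both. A match is a description of these letters and not a measured binding site.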

How the data were processed

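The deposited table held whole-number read counts per gene for 45 libraries, as the authors deposited them, with no scaling. The submitters' processing notes name STAR 2.7.8a, HTSeq 0.11.0 and mm39, with no further settings given in the sources used here. Groups came from the titles and columns from the library number in the descriptions. All 192 pairs of libraries within groups differed by more than counting noise (chi-square over degrees of freedom at least 2.08).

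Tests were quasi-likelihood F tests with a robust fit in edgeR 4.0.16 (R 4.3.3), after TMM scaling and filterByExpr with a minimum count of 10 and a minimum total of 15. P-values were adjusted by Benjamini-Hochberg over all tested genes, and an adjusted p under 0.05 made a call. One fit held the 29 chimeric libraries (8533 genes) and the other held YY and both controls (27 libraries, 8749 genes). Standard errors came from the F statistic and 95% intervals from those and the normal distribution. CPM were TMM-scaled over the 45 libraries. Correlations used log2 CPM with a prior count of 2. The edgeR fit and the permutation test were checked on simulated data.

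All 6 members were named. From each pathway list up to 6 called genes with the smallest p were named per comparison, and per member the 3 genes with the highest r, predicted models left out. The members, lists and tests were chosen with earlier results of these data known. Sequences came from GENCODE M21 and RefSeq tables on GRCm38, matched by symbol; figures were drawn with matplotlib 3.10.9. Alternatives included DESeq2 1.42.0, limma 3.58.1 (voom), other scalings, filters and library sets, a replicate block, and sets of oocytes that share an all-or-nothing pattern. These last used genes with a gap of at least 3 on the log2 scale between high and low oocytes. List counts and ratios with either YY run alone, and correlations with pattern means removed, were added after seeing the data.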

Additional observations from a re-analysis of the deposited data

How the results depend on the processing

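Counts of genes called, AA against YY (2348), became 1081 with the pattern as a random block, 2 with the libraries of a pattern summed and 451 with YY libraries S198 to S202 alone; members called fell to 0 in the last 2. AY against AA (562) became 876 with 2 groups alone, 80 with the pattern block and 1 with sums; DESeq2 called 1 member. AY against YY (138) became 236 with no filter on low counts, 79 with 2 groups alone, 22 with the pattern block, 0 with sums and 847 with YY libraries S225 to S231 alone. YY against in vitro young (217) became 404 with DESeq2, 532 with voom, 378 with all 45 libraries in one fit, 71 with genes detected as a covariate, 0 with sums, and 99 or 803 with the first or second YY run alone. In vitro young against in vivo young (12) became 20 with library totals or with 2 groups alone, 44 with DESeq2, 37 with voom, 29 with no filter, with all 45 libraries in one fit or with the pattern block, and 0 with the covariate or with sums. Scaling by library totals alone moved the share of higher calls in AA against YY from 46.4% to 29.5%, in AY against AA from 53.4% to 69.5% and in YY against in vitro young from 31.3% to 47.3%. Sums leave 8 or 11 units per fit; other causes were not tested.

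With the replicate block, AY against AA had 1078 genes and 1 member called (Cdca8, -0.27, adjusted p = 0.0499), YY against in vitro young 115 (of the lists, 1 activator and 1 substrate, both lower) and in vitro young against in vivo young 6. Deviations of same-numbered libraries correlated by -0.221 to 0.24 over the 5 comparisons. Pairs above 0.1 were 2 of 11 in AA against YY, 2 of 6 in AY against YY and 4 of 8 in in vitro young against in vivo young. In AY against AA and in YY against in vitro young 0 pairs were above 0.1. The labels give these libraries a shared number alone, and a shared origin was not tested.

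With 1 library left out, genes called ranged from 1961 to 2514 in AA against YY, 203 to 607 in AY against AA, 84 to 155 in AY against YY, 114 to 352 in YY against in vitro young and 0 to 18 in in vitro young against in vivo young. Members called were 3 in all 23 repeats of AA against YY and 0 to 1 in AY against AA, and 0 in each other repeat. In those 23, Aurka stayed between 0.20 and 0.26, Incenp between -0.72 and -0.50 and Cdca8 between 0.31 and 0.36. Cdca8 over Incenp, AA against YY, stayed between 0.89 and 1.05, and AY against AA between -0.80 and -0.54. Aurka over Aurkc lay between -0.75 and -0.57 in in vitro young against in vivo young and between -0.18 and 0.18 in AY against AA. With YY libraries S198 to S202 alone, Aurka over Aurkc was -0.058 in AA against YY, -0.10 in AY against YY and 0.62 in YY against in vitro young (exact permutation test, adjusted p = 0.0495), and Cdca8 over Incenp was 0.05 in YY against in vitro young. Of the member pairs, 0 were called over the 45 libraries and 1 in the chimeric libraries alone. A pseudocount of 1 left all 15 ratio tests on their side of the threshold. Depth limits Aurkb, Aurkc and Incenp most.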

Other observations

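The 2 YY runs had different means for several members. Birc5 averaged 989 ± 83.5 CPM in YY libraries numbered S198 to S202 (n = 5) and 1118 ± 71.4 CPM in those numbered S225 to S231 (n = 6). Cdca8 averaged 459 ± 33.8 and 406 ± 40 CPM in the same runs, and Incenp 62.2 ± 12.9 and 66.5 ± 12.3 CPM. No test was made between the runs.

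The spread of Aurkc was widest in AY and narrowest in AA. The 6 AY oocytes ranged from 24.6 to 70.4 CPM for Aurkc, a coefficient of variation of 46.8%, and the 12 AA oocytes from 33 to 54.8 CPM, a coefficient of 14.7%, where counting alone gives 19.2% in AY and 17.5% in AA, so the AA spread lay below its counting error. The spreads were not compared by a test.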
